A study of Homo sapiens with 6 samples.

Results

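Antigen processing and MHC class I genes were compared between an untreated prostate epithelial line and its malignant descendants kept in arsenite. The set was 10 genes chosen by name: the immunoproteasome subunits PSMB8, PSMB9 and PSMB10, the peptide transporter genes TAP1 and TAP2, the loading factor TAPBP, the trimming enzymes ERAP1 and ERAP2, the class I light chain B2M, and the class I heavy chain HLA-E. Of these, 9 of 10 were measured by a feature with a single gene symbol, out of 18417 genes measured in this way. HLA-E was the gene without such a feature and was not analysed here.

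RWPE-1 is an established human prostate epithelial line, immortalised with papillomavirus genes and not tumorigenic. The RWPE-1 group was 3 arrays of untreated cells at passages 18, 38 and 42. The CAsE-PE group was 3 arrays of malignant descendants of that line, kept in 5 µM sodium arsenite for 30, 33.5 and 35 weeks. Both groups grew in serum-free keratinocyte medium with pituitary extract and epidermal growth factor. Both come from 1 line, the labels give no passage for CAsE-PE, and nothing says that the arrays of a group were separate cultures. The p-values therefore measure the spread between these arrays, which may be technical. Time in culture and arsenite exposure cannot be told apart.

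MHC class I molecules display short peptides of the cell's own proteins to cytotoxic T cells. The peptides are cut by the proteasome, whose 3 constitutive catalytic subunits can be replaced by the immunoproteasome subunits, carried into the endoplasmic reticulum by the TAP1-TAP2 transporter, trimmed there by ERAP1 and ERAP2, and loaded with the help of tapasin (TAPBP) onto a heavy chain paired with B2M. Most of these genes are inducible by interferons, through factors of the IRF family and the class I transactivator NLRC5.

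Members are shown first by the letters near their starts, because TAP2, PSMB8, TAP1 and PSMB9 lie side by side on chromosome 6 and because interferon-activated factors bind a recognisable element. RefSeq promoter windows of build GRCh38.p14 (250 bases before to 50 after a start) were held for all 9 measured genes, in 13 windows. The letters GAAA, then any pair of bases, then GAAA, a core of the interferon-stimulated response element, were searched on both strands. They stood in 8 of the 13 windows, against 3.57% of 35116 promoter windows of the same length. By gene, 8 of 9 had a match in a window, and PSMB9 did not. In the stretches below, all 5′ to 3′ on the strand of the gene with 15 bases on each side, capitals mark the match or matches.
PSMB8, chr6:32844027-32844066, minus strand: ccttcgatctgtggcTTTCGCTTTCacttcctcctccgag
PSMB10, chr16:67936847-67936886, minus strand: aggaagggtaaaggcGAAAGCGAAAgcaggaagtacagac
TAP1, chr6:32853808-32853853, minus strand: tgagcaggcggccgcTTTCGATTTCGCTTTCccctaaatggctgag
TAP2, chr6:32838773-32838812, minus strand: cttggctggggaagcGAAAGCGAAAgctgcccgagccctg
TAPBP, chr6:33314068-33314113, minus strand: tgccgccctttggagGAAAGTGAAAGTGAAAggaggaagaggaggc
ERAP1, chr5:96807919-96807958, minus strand: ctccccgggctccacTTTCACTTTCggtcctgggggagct
ERAP2, chr5:96876455-96876494, plus strand: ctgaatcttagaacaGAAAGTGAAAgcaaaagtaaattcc
B2M, chr15:44711358-44711403, plus strand: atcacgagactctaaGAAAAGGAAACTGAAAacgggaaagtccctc

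Overlapping pairs of matches stood in the TAP1, TAPBP and B2M windows. Of the 4 genes with 2 windows, PSMB8, ERAP1 and ERAP2 had their match in a window whose start is not the outermost start of the gene in the RefSeq gene table, and the other window of each had none. The matches of TAP1 and B2M began farthest upstream of the start of their window, at −134 and −144. The PSMB9 window is given whole because it was the window of the gene with the largest difference between the groups and the only gene without the letters. PSMB9 and TAP1 point away from each other, with 487 bases between their starts, so their windows share 13 bases and the TAP1 matches lie in the stretch between them. In the PSMB9 window, capitals mark CCAAT, the letters bound by nuclear factor Y, and TGACG on the other strand, the core of a cyclic AMP response element.
PSMB9, chr6:32853942-32854241, plus strand: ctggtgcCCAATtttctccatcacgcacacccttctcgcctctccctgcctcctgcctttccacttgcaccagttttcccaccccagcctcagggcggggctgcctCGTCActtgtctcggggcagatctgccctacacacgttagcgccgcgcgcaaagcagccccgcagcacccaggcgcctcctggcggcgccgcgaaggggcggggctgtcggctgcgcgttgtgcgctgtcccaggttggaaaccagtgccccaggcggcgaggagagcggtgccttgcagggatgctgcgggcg

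Each of these shorter motifs is common, CCAAT being in 34.6% of all windows and TGACG in 24.6%. CCAAT, which nuclear factor Y binds, was in 4 of the 13 windows, 1 each of PSMB9, TAP1, ERAP1 and B2M. The PSMB9 and TAP1 matches are the same site, as they fall on the same letters within the 13 bases that these windows share. TGACG was also in 4 of the 13 windows, 1 each of PSMB9, PSMB8, TAP2 and B2M. The interferon-gamma activated letters TTCNNNGAA were in 2 of the 13 windows, 1 each of PSMB8 and TAP1, against 7.66% of all windows. The NF-kB type letters GGAANTCCC were in 1 of the 13 windows, that of TAPBP, against 1.85%. A match describes letters in a window and shows no binding, and a window without a match says nothing of the factor.

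The comparison of CAsE-PE with RWPE-1 asks how these genes differ between the immortal line and its transformed descendant. PSMB9, ERAP2 and ERAP1 fell in CAsE-PE, to 50.5%, 63.7% and 71.0% of their RWPE-1 level. The other 6 genes did not pass the threshold, an adjusted p under 0.05 in the limma fit over all genes. Levels are log2(intensity + 1), and a difference is the mean of the 3 CAsE-PE arrays less that of the 3 RWPE-1 arrays, with its standard error (SE) from the fit. Over the 9 genes, 3 were called lower and 0 higher, where 8.71% of all genes were called lower and 9.04% higher. The 9 genes all lay in the brighter part of the table, the 12278 genes above a mean level of 6.25, of which 9.74% were called lower. Unadjusted, 6 of 9 had a p under 0.05, as did 32.4% of all genes. All 9 differences were negative, as were 59.5% of differences over all genes and 51.4% over the brighter genes. The median difference was −0.30 for the 9 genes and −0.06 for all genes. In these bulk samples, fewer cells expressing a gene and less RNA per cell cannot be told apart.

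**Figure D1:**
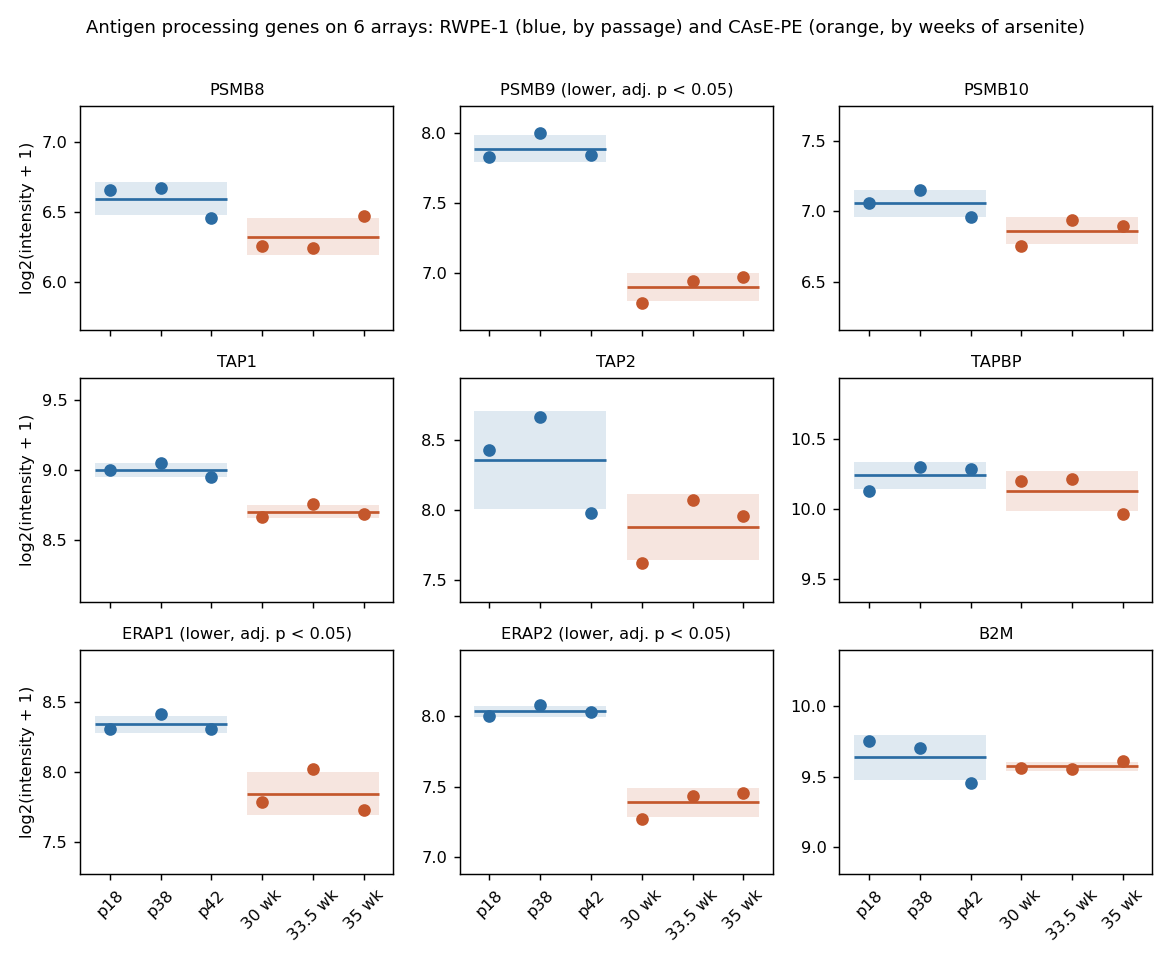
Level of each of the 9 genes on each array as log2(intensity + 1), RWPE-1 in blue by passage and CAsE-PE in orange by weeks of arsenite; lines are group means and bands 1 SD (n = 3), and every panel spans the same height on its own level. PSMB9 shows the widest gap between the groups, ERAP1 and ERAP2 narrower ones, and B2M and TAPBP overlap.

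Among the immunoproteasome subunits, PSMB9, the beta1i subunit, stood at 7.827, 7.996 and 7.840 in RWPE-1 at passages 18, 38 and 42. In CAsE-PE it stood at 6.787, 6.941 and 6.975 at 30, 33.5 and 35 weeks. Every CAsE-PE array lay below every RWPE-1 array, with 0.85 between the nearest of them, and the SD was 0.09 in RWPE-1 and 0.10 in CAsE-PE. The difference was −0.99 (SE 0.10, 95% interval −1.22 to −0.75, adjusted p = 0.000335), a 1.98-fold fall. Of all genes, 394 (2.14%) had a lower difference. The 3 features annotated to PSMB9 held identical values, so they are 1 measurement.

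PSMB8, the beta5i subunit, stood at 6.66, 6.67 and 6.46 in RWPE-1 and at 6.26, 6.24 and 6.47 in CAsE-PE. The 35-week array lay just above the passage 42 array, so the groups overlapped. Its difference was −0.27 (SE 0.11, 95% interval −0.53 to −0.02), and the adjusted p was 0.132. The difference was −0.16 with quantile normalisation (adjusted p = 0.424) and −0.30 with array weights, where PSMB8 passed (adjusted p = 0.0378). In CAsE-PE, PSMB8 lay near the level of 6.25 that bounds the dimmer genes. Its 3 features also held identical values. An antisense RNA gene, PSMB8-AS1, overlaps the spans of PSMB8 and TAP1 in RefSeq, and the probes behind the features were not examined here.

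PSMB10, the beta2i subunit, stood at 7.06, 7.15 and 6.96 in RWPE-1 and at 6.75, 6.94 and 6.90 in CAsE-PE. The groups did not overlap, but only 0.02 separated the passage 42 and 33.5-week arrays. The difference of −0.19 (SE 0.10, 95% interval −0.43 to 0.04) had an adjusted p of 0.232. Groups without overlap and with CAsE-PE lower were seen for 5 of the 9 genes, for 22.8% of all genes and for 21.2% of the brighter genes.

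The constitutive subunits that these 3 replace gave differences near 0 or above it, and 0 of 3 passed the threshold. PSMB6, the constitutive partner of PSMB9, stood at 11.34, 11.29 and 11.26 in RWPE-1 and 11.21, 11.25 and 11.19 in CAsE-PE. Its difference was −0.08 (SE 0.09, 95% interval −0.29 to 0.13, adjusted p = 0.570). The interval of PSMB9 lies wholly below that of PSMB6, though the difference between both genes was not tested. PSMB5, the partner of PSMB8, differed by −0.08 (SE 0.14, adjusted p = 0.718). PSMB7, the partner of PSMB10, differed by 0.32 (SE 0.14, adjusted p = 0.152), and without the 30-week array by 0.46 (adjusted p = 0.0393).

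**Figure D2:**
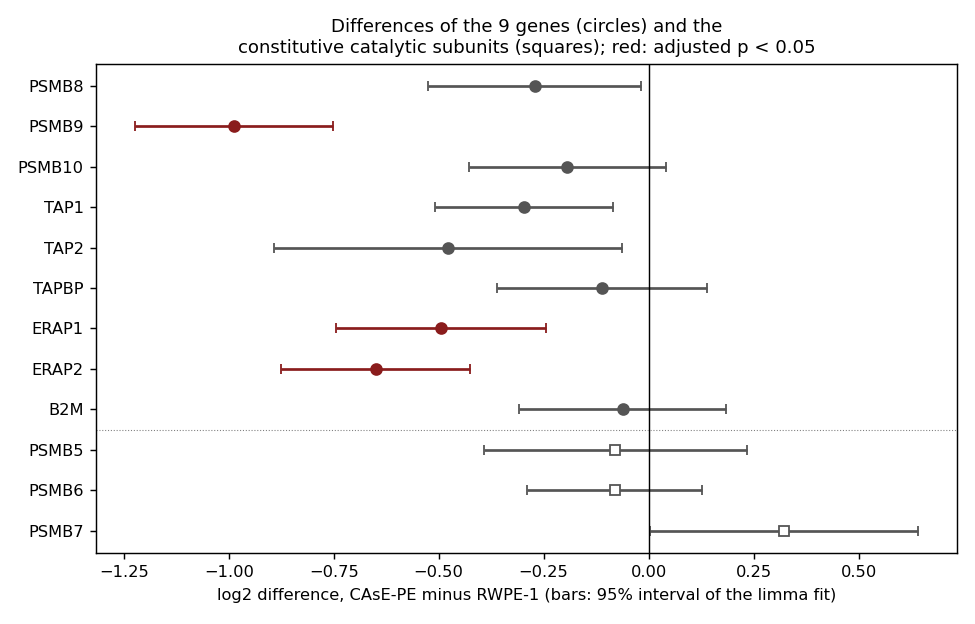
Group difference (log2, CAsE-PE less RWPE-1) and 95% interval of the limma fit, for the 9 genes (circles) and the 3 constitutive catalytic subunits (open squares). PSMB9 at −0.99, ERAP2 at −0.65 and ERAP1 at −0.49, in red, passed the threshold; the intervals of B2M, TAPBP, PSMB10, PSMB5 and PSMB6 span 0.

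Of the genes of transport and loading, none passed the threshold, and TAP1 came nearest. TAP1, one chain of the peptide transporter, stood at 9.004, 9.050 and 8.953 in RWPE-1 and at 8.665, 8.758 and 8.691 in CAsE-PE. The groups did not overlap and each had an SD of 0.05, the lowest spread of the set in RWPE-1 after ERAP2. The difference was −0.30 (SE 0.09, 95% interval −0.51 to −0.09) and the adjusted p 0.0583. TAP1 passed with quantile normalisation (−0.35, adjusted p = 0.0259), with a pseudocount of 16 (adjusted p = 0.0325), with the dimmer genes left out (adjusted p = 0.0495) and with array weights (adjusted p = 0.0145), and its adjusted p reached 0.188 without the passage 38 array.

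TAP2, the other chain, was the most scattered of the 9 genes. It stood at 8.43, 8.67 and 7.98 in RWPE-1 and at 7.62, 8.07 and 7.96 in CAsE-PE, so the passage 42 array lay among the CAsE-PE arrays. The difference was −0.48 (SE 0.18, 95% interval −0.89 to −0.06, adjusted p = 0.108). Without the passage 42 array it was −0.67 with an adjusted p of 0.0259, and with array weights, which count scattered arrays less, −0.61 with 0.00891. TAP2 had 3 features with different values, and on the other 2 the difference was −0.51 and −0.39. The passage 42 array was the lowest RWPE-1 array on each of the 3 features.

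TAPBP, tapasin, which bridges the transporter and the empty class I molecule, stood at 10.13, 10.30 and 10.29 in RWPE-1 and at 10.20, 10.22 and 9.97 in CAsE-PE. Of the CAsE-PE arrays, those at 30 and 33.5 weeks lay within the range of RWPE-1. The difference was −0.11 (SE 0.11, 95% interval −0.36 to 0.14, adjusted p = 0.517). Its 2 other features gave −0.15 and −0.11.

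Both trimming enzymes fell. ERAP2, an aminopeptidase that favours basic residues, stood at 8.002, 8.080 and 8.030 in RWPE-1 and at 7.268, 7.434 and 7.458 in CAsE-PE. The groups were 0.54 apart at their nearest arrays. The difference was −0.65 (SE 0.10, 95% interval −0.88 to −0.43, adjusted p = 0.00235), a 1.57-fold fall.

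ERAP1, an aminopeptidase that trims longer peptides to the length class I molecules accept, stood at 8.31, 8.41 and 8.30 in RWPE-1 and at 7.79, 8.02 and 7.73 in CAsE-PE. The groups were 0.28 apart at their nearest arrays. The difference was −0.49 (SE 0.11, 95% interval −0.74 to −0.24, adjusted p = 0.0145), a 1.41-fold fall. ERAP1 no longer passed when the passage 38 array was left out (−0.46, adjusted p = 0.0705) or when the 35-week array was (−0.44, adjusted p = 0.0637). In RefSeq the span of ERAP1 overlaps that of ERAP2 over 43733 bases and that of CAST over 13871 bases, and whether the features share probes over these stretches was not tested.

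B2M, the light chain of all class I molecules, stood at 9.75, 9.70 and 9.45 in RWPE-1 and at 9.56, 9.55 and 9.61 in CAsE-PE. All CAsE-PE arrays lay inside the range of RWPE-1. The difference was −0.06 (SE 0.11, adjusted p = 0.720), the same to 2 decimals as the median of all genes. Its 95% interval of −0.31 to 0.19 reaches a 1.24-fold lower level.

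Within the groups, the arrays ranked alike for many members. How many of the brighter genes ranked in the same way was not counted, so this ranking may not be particular to the members. The passage 38 array was the highest of the 3 RWPE-1 arrays for 8 of the 9 genes and above the group mean for all 9, whereas the median gene of the whole table deviated by 0.00 on that array. The passage 42 array was the lowest for 6 of 9, including TAP2, PSMB8, TAP1, PSMB10, B2M and ERAP1. Among CAsE-PE arrays, the one at 30 weeks was the lowest for 5 of 9 genes, including PSMB9, ERAP2 and TAP2. The median deviation of the 9 genes from their group means was 0.07 at passage 38 and −0.07 at 30 weeks, and TAP2 deviated further on both arrays.

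A further limma model added passage number for the RWPE-1 arrays and exposure weeks for the CAsE-PE arrays, with 2 residual degrees of freedom. Of the 9 genes, 0 passed for passage and 0 for weeks, and 0 had an unadjusted p under 0.05 for either. The lowest adjusted p of a member was 0.880 for passage (B2M, −0.01 per passage, SE 0.01) and 0.712 for weeks (TAP2, 0.08 per week, SE 0.06). Over all genes, 0.0217% passed for passage and 0.25% for weeks, so this model called few genes of any kind.

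The members differ in what surrounds them on the chromosome. For each, the 12 measured genes on each side among the brighter genes were taken in RefSeq order, with other members left out. TAP2, PSMB8, TAP1 and PSMB9 share 24 neighbours around them on chromosome 6. Of these, 0 were lower and 1 higher (HSD17B8, a 17-beta-hydroxysteroid dehydrogenase, 0.85), and their median difference was −0.11. Over all genes 8.71% were called lower and 9.04% higher, and 9.74% of the brighter genes were called lower. Of the 24, 19 had a negative difference, where 51.4% of the brighter genes did. None of the 24 had a difference below that of PSMB9 or TAP2, 1 lay below TAP1 and 2 below PSMB8. TAPBP, farther along chromosome 6, had neighbours with a median of −0.03, of which 1 fell and 3 rose. Some of the TAPBP neighbours are also among the 24 above, and HSD17B8 is counted as a rise in both.

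ERAP1 and ERAP2, next to each other on chromosome 5, share 24 neighbours of which 6 rose and 0 fell, with a median of 0.21. The nearest neighbour on one side, CAST, the calpain inhibitor calpastatin, differed by 0.32 (SE 0.11, adjusted p = 0.0725), and GLRX, the glutaredoxin gene, rose by 0.50 (SE 0.10). None of the 24 had a difference below that of ERAP1. B2M on chromosome 15 lay among neighbours with a median of 0.41, of which 11 rose and 3 fell. PSMB10 on chromosome 16 lay among neighbours with a median of 0.14, 1 lower and 1 higher. Each of these counts is out of 24 neighbours, where 8.71% of all genes were called lower and 9.04% higher.

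**Figure D3:**
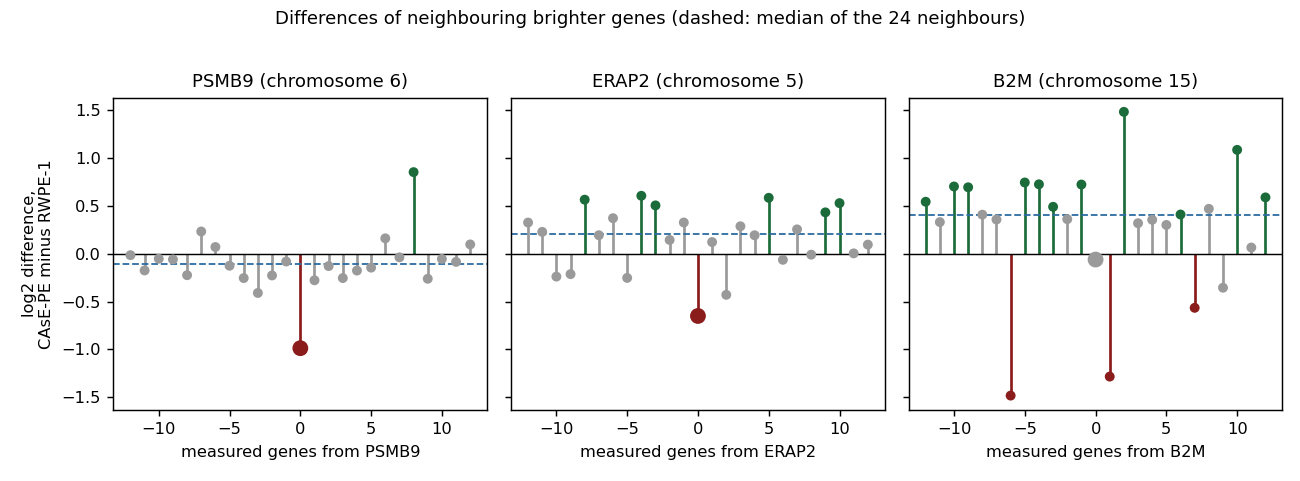
Difference of CAsE-PE minus RWPE-1 (log2) of PSMB9, ERAP2 and B2M (large points at 0) and of the 12 brighter measured genes on each side in chromosome order, red for genes called lower, green for higher, grey for genes not past the threshold; other members are left out and dashed lines are the neighbours' medians. PSMB9 and ERAP2 point down among neighbours with medians of −0.11 and 0.21, and B2M lies near 0 among neighbours with a median of 0.41.

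The other genes of the pathway were taken from 10 lists of 99 genes, of which 87 were measured. In all, 10 of them (11.5%) fell and 6 (6.90%) rose, 71 were not called, and the median difference was −0.08; over all genes 8.71% fell and 9.04% rose. With 1 array left out, the number that fell was 4 without passage 18, 2 without passage 38, 5 without 33.5 weeks and 5 without 35 weeks. The 11 other subunits of the 20S core had 0 lower and 0 higher, a median of −0.07 and differences from −0.29 (PSMA2) to 0.38 (PSMA5). Of 9 proteasome activators and assembly factors, 0 fell and 1 rose, the assembly chaperone PSMG4 (0.55, SE 0.11, adjusted p = 0.00789). The interferon-inducible activator subunits PSME1 and PSME2 differed by −0.28 (SE 0.13, adjusted p = 0.179) and 0.09 (SE 0.13, adjusted p = 0.656). Without the 30-week array the difference of PSME1 was −0.41 and passed (adjusted p = 0.0307).

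Of 6 chaperones of the loading complex and the endoplasmic reticulum, 1 rose and 0 fell, where 9.04% of all genes rose and 8.71% fell. HSPA5, the general chaperone BiP, stood at 10.71, 10.98 and 10.55 in RWPE-1 and at 11.52, 11.45 and 11.43 in CAsE-PE (0.72, SE 0.12, adjusted p = 0.00424). The class I chaperones CALR, calreticulin, and CANX, calnexin, differed by −0.08 (SE 0.12) and 0.10 (SE 0.10), with adjusted p-values of 0.671 and 0.514. Of 6 other peptidases, NPEPPS, a cytosolic aminopeptidase, rose by 0.69 (SE 0.10, adjusted p = 0.00218). TPP2, a large cytosolic peptidase, fell by 0.61 (SE 0.13, adjusted p = 0.0139), but did not pass with passage 38 left out (adjusted p = 0.0674) or with 35 weeks left out (adjusted p = 0.0596).

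Of 5 other class I-like chains measured, 1 fell and 1 rose, where 8.71% of all genes fell and 9.04% rose. CD1D, which presents lipids, stood at 7.27, 7.52 and 7.59 in RWPE-1 and at 6.84, 6.76 and 6.88 in CAsE-PE (−0.63, SE 0.11, adjusted p = 0.00531). FCGRT, the neonatal Fc receptor chain that also pairs with B2M, rose by 0.43 (SE 0.10, adjusted p = 0.0151), but did not pass with passage 38, 33.5 weeks or 35 weeks left out (adjusted p = 0.0767, 0.0523 and 0.0605). No feature carried the symbol of a classical heavy chain alone, and these chains were not analysed here.

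**Figure D4:**
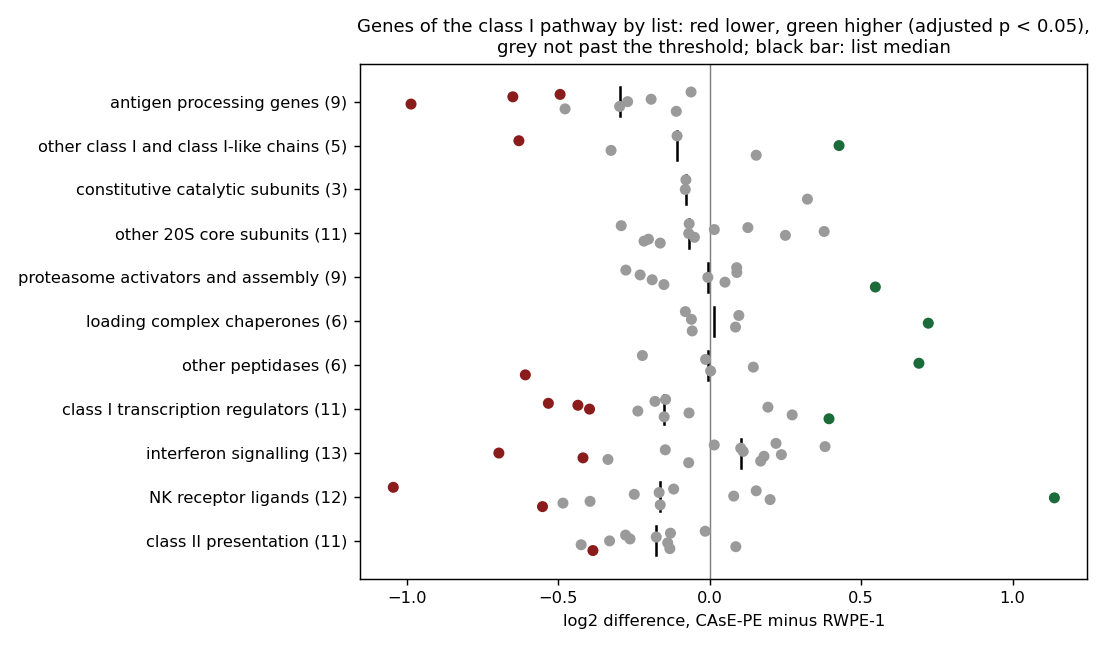
Difference of CAsE-PE minus RWPE-1 (log2) of each measured gene, by list with the number of genes in brackets; red points were called lower, green higher and grey did not pass the threshold, and black bars are list medians. The antigen processing genes lie wholly below 0 with a median of −0.30, and the 20S core subunits lie on both sides with a median of −0.07.

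Among 11 regulators of class I transcription, 3 (27.3%) fell and 1 (9.09%) rose, where 8.71% of all genes fell and 9.04% rose. The fallen genes were NFKB1, the p105/p50 subunit of NF-kB (−0.53, SE 0.15, adjusted p = 0.0418), and the nuclear factor Y subunits NFYA (−0.44, SE 0.13, adjusted p = 0.0420) and NFYC (−0.40, SE 0.10, adjusted p = 0.0219). RFXAP, a subunit of regulatory factor X that lay among the dimmer genes, rose by 0.39 (SE 0.12, adjusted p = 0.0474), and did not pass with a pseudocount of 16 (adjusted p = 0.0572). NFYA did not pass with array medians centred (adjusted p = 0.0632). These 4 calls lay near the threshold: with 1 array left out, RFXAP, NFYA and NFKB1 were each lost in 5 of 6 fits (highest adjusted p = 0.169 without 35 weeks, 0.142 and 0.126 without passage 38) and NFYC in 4 (0.0804 without 35 weeks). NLRC5 stood at 6.55, 6.42 and 6.42 in RWPE-1 and at 6.26, 6.21 and 6.20 in CAsE-PE. Its groups did not overlap, and the difference of −0.24 (SE 0.10, 95% interval −0.45 to −0.02) did not pass (adjusted p = 0.121). NLRC5 lay near the level of 6.25 that bounds the dimmer genes.

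Of 13 interferon signalling genes measured, 2 (15.4%) fell and 0 rose, and their median was 0.10. Over all genes 8.71% fell and 9.04% rose. IRF9, the DNA-binding part of the type I interferon complex, stood at 7.919, 7.685 and 7.566 in RWPE-1 and at 7.501, 6.713 and 6.867 in CAsE-PE (−0.70, SE 0.20, adjusted p = 0.0378). PTPN2, a phosphatase that acts on the signalling kinases, fell by 0.42 (SE 0.11, adjusted p = 0.0270). With 1 array left out, IRF9 was lost in 5 fits (highest adjusted p = 0.130 without 35 weeks) and PTPN2 in 4 (0.0974 without passage 18). IRF9 also did not pass with array medians centred (adjusted p = 0.0511). IRF1, a main inducer of the immunoproteasome genes, stood at 6.84, 6.82 and 6.80 and at 6.83, 6.54 and 6.65. It differed by −0.15 (SE 0.11, adjusted p = 0.367), with the 30-week array inside the range of RWPE-1.

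The genes outside the set with the profiles nearest to 3 members were found among 12269 brighter genes, by the root mean square difference of log2 levels over the 6 arrays after each gene was centred on its own mean. Nearest to PSMB9 were STK25 (0.03), RIMKLB and FARP2 (0.06 each), HTR7 and SIRPA (0.06 and 0.07), against 0.50 for PSMB9's own spread about its mean. Nearest to TAP1 were DCTN1, SLC41A1, MARCHF5, HECTD2 and PPP2R1A (0.03 each, own spread 0.15). Nearest to B2M were DCAF13, UGGT1 and GTF2H1 (0.02 each) and SF3A3 and BTBD1 (0.03 each, own spread 0.10). How common such close profiles are among so many genes on 6 arrays was not measured, and likeness here is a description only.

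The cells carried epithelial markers on every array. All 8 measured basal epithelial markers were among the brighter genes, with KRT5 at 12.05 ± 0.05 (SD) in RWPE-1 and 11.93 ± 0.13 in CAsE-PE, though 4 of the 8 fell (KRT15, −1.77; KRT14, −1.60; LAMB3, −1.48; CDH3, −0.34) and 1 rose (TRIM29, 0.48). Of 6 general epithelial markers, 2 rose and 0 fell. Of 11 leukocyte markers, 9 were among the dimmer genes, including PTPRC, the pan-leukocyte gene CD45, at 3.84 to 3.99 in RWPE-1 and 3.73 to 3.86 in CAsE-PE. Their summed intensity was 1566 to 1861 in RWPE-1 and 948 to 1273 in CAsE-PE, and 2 of 11 fell, CD68 (10.23 to 9.34), the brightest of them, and CD14 (6.40 to 5.97). CD68 made up most of the summed intensity. All 11 had a negative difference, with a median of −0.21, and 6 had groups without overlap and with CAsE-PE lower. Over all genes, 59.5% of differences were negative, 22.8% had such groups, 8.71% were called lower and 9.04% higher. These shares were not taken for the dimmer genes alone, where 9 of the 11 lay. All 5 endothelial and 6 of 7 fibroblast markers were among the dimmer genes, with summed intensities of 228 to 261 and 498 to 534 in RWPE-1 and 211 to 234 and 488 to 514 in CAsE-PE, and 1 of these, the fibroblast marker PDGFRB, fell. The part of the changed markers in the values of the antigen processing genes was not tested.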

How the data were processed

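Whole-transcript arrays with a single colour measured RNA of 6 samples. The authors deposited 1 linear intensity per feature and array for 33252 features; how they corrected, summarised and normalised it is not stated in the labels, and array medians lay between 91.7 and 97.2. Features were named through GEO's platform annotation (1 symbol for 19460, several for 1754, 12038 not listed), and each gene took its brightest single-symbol feature. Values were used as deposited, as log2(intensity + 1). Groups came from the labels; the test was limma 3.58.1 (lmFit and eBayes, R 4.3.3, two-sided, 4 residual degrees of freedom) over 18417 genes, with Benjamini-Hochberg adjustment. The group test was checked on simulated data at the spread of these arrays. The passage and weeks model was checked only at a smaller simulated spread, so its power at the real spread was not examined. The number of arrays limits the precision. The members and lists were chosen with earlier results of these data known. Named genes were all members, up to 3 rises and 3 falls called per list, the constitutive subunits, NLRC5 and IRF1, and the 5 nearest profiles of PSMB9, TAP1 and B2M; PSMA2, PSMA5, PSME1, PSME2, CALR, CANX, neighbours and markers were added as examples. Alternatives were other scalings, a pseudocount of 16, a filter on dim genes, averaged features, other variance models, array weights and each array left out. Promoter windows and gene order come from RefSeq, GRCh38.p14.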

Additional observations from a re-analysis of the deposited data

How the results depend on the processing

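All 9 members kept a negative difference under all 13 alternatives to the comparison of the groups. Some of these could not change the sign: the filter on dim genes and the other variance model leave each difference as it was. Averaged features alter it only for TAP2 and TAPBP. PSMB9 (−1.02 to −0.90, highest adjusted p = 0.00332) and ERAP2 (−0.69 to −0.59, highest adjusted p = 0.0169) passed under all 13, and ERAP1 under 11. PSMB10, TAPBP and B2M passed under none. With array weights 6 members were lower, adding PSMB8, TAP1 and TAP2, and 20 genes of the pathway lists were lower, against 10; over all genes array weights called 2746 lower and 2596 higher, against 1604 and 1665. With each array left out, 2 to 4 members and 2 to 7 genes of the pathway lists were lower, and 939 to 1519 of all genes. No member was called for passage or weeks under the other scalings, the pseudocount of 16 or the filter, nor with averaged features or each array left out, both chosen after seeing the data; array weights and the other variance model were not run there. The median of all genes moved from −0.06 to −0.01 with quantile normalisation. No paired analysis was possible because the replicate numbers only follow the order of the samples. No detection call was used, so for dimmer genes, CD274, RFXAP and 7 class II genes among them, low signal cannot be told from background.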

Other observations

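Surface ligands seen by T cells and natural killer cells were measured for 12 genes, of which 2 fell (16.7%) and 1 rose (8.33%). Over all genes 8.71% fell and 9.04% rose. CD274, which encodes the checkpoint ligand PD-L1, stood at 6.39, 6.30 and 5.97 in RWPE-1 and at 5.07, 5.31 and 5.14 in CAsE-PE, a difference of −1.05 (SE 0.13, limma adjusted p = 0.000895), with the CAsE-PE arrays all below those of RWPE-1. CD274 lay among the dimmer genes, below a mean level of 6.25. RAET1E, a ligand of the receptor NKG2D, stood at 6.49, 6.56 and 6.81 in RWPE-1 and at 7.38, 7.58 and 8.31 in CAsE-PE (1.14, SE 0.22, adjusted p = 0.00680). ULBP3, another NKG2D ligand, fell by 0.55 (SE 0.16, adjusted p = 0.0431), a call lost with array medians centred (adjusted p = 0.0542) and without the passage 18, passage 38, 30-week or 35-week array (highest adjusted p = 0.156, without passage 38).

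Class II presentation genes, which epithelial cells express mainly under interferon gamma, had 1 of 11 called lower (9.09%) and 0 higher, with a median of −0.18. Over all genes 8.71% were called lower and 9.04% higher, with a median of −0.06. These values were not taken for the dimmer genes alone. The called gene was IFI30, a lysosomal thiol reductase, at 9.93, 9.84 and 9.86 in RWPE-1 and 9.42, 9.41 and 9.64 in CAsE-PE (−0.39, SE 0.11, limma adjusted p = 0.0336). With 1 array left out that call was lost in 5 of 6 fits (highest adjusted p = 0.104, without passage 18). Of the 11 genes, 7 lay among the dimmer genes.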
